A study of Mus musculus with 8 samples.

Results

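Proteasome subunit genes were taken as all mouse protein-coding genes whose symbol starts with Psma, Psmb, Psmc, Psmd, Psme, Psmf or Psmg followed by a digit. This rule found 51 of the 21887 protein-coding genes in the RefSeq table of the mm10 assembly (GRCm38.p6). They comprised 8 alpha ring genes, 7 constitutive beta ring genes, 3 immunoproteasome beta genes, 1 thymic beta gene, 6 base ATPase genes, 11 genes of non-ATPase regulatory subunits, 7 assembly chaperone genes, 4 activator genes and 1 inhibitor gene. The remaining 3 matches were of another kind. Psmc3ip encodes a partner of meiotic recombinases, Psme3ip1 a protein that interacts with an activator, and Psme2b is a short copy of Psme2.

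PU.1, an ETS-family transcription factor of the myeloid lineage, was mapped by ChIP-seq, the sequencing of DNA that an antibody pulls down with the factor. The cells were AML246, a line of mouse acute myeloid leukaemia whose PU.1 is restored by doxycycline (Dox). All cells were grown with IL-3. The restoration series held an untreated library (day 0) and libraries after 4, 8 and 12 days of Dox at 0.1 ug/mL, each from total viable sorted cells. The withdrawal series, in title order, was knockdown Day 12- 4, knockdown Day 12- 8 and knockdown Day 12- 12. Treatment labels of the same libraries give other times: the first was sorted as Cd11b-high after 12 days of Dox, the second was 4 days off Dox and the last 8 days off. Each is called by its title here. Every time point had 1 library of 1 cell line. The spread between replicates is thus unknown for every value, and there are no tests. The construct that controls PU.1 is not given in the sources used here. The lists held from 8043 summits at day 0 to 148415 in the library titled Day 12- 12. A longer list reaches more genes, sequencing depth was unknown, and a missing call is not absence of binding.

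The proteasome degrades proteins tagged with ubiquitin. Its core particle is a stack of alpha and beta rings whose beta subunits carry the proteolytic sites, and its regulatory particle holds ATPases that unfold substrates and non-ATPase subunits that bind and trim the ubiquitin chains. In immune cells, and after interferon, Psmb8, Psmb9 and Psmb10 replace the constitutive catalytic subunits and change the peptides offered on class I molecules.

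The start regions below show the letters at the starts of some members with called sites. Of the 51 genes, 43 had a promoter window in the RefSeq table (GRCm38.p6), and 20 of these held the ETS core GGAAGT on either strand in at least 1 window of 250 bases before to 50 after the start. Printed are 150 bases before the start and 10 after it for 5 genes with such a core close to a day 12 summit, and for Psmb8 and Psmb9, whose windows held none. The called summits of Psmb8 and Psmb9 lay outside the printed bases, so their stretches do not show the letters under their sites. Capitals mark GGAAGT or its reverse complement ACTTCC. Psmc2 (chr5:21785125-21785284, plus strand), Psmc1 (chr12:100110052-100110211, plus strand), Psmd13 (chr7:140882244-140882403, plus strand), Psmd6 (chr14:14120936-14121095, minus strand), Psme4 (chr11:30771625-30771784, plus strand), Psmb8 (chr17:34198045-34198204, plus strand) and Psmb9 (chr17:34187321-34187480, minus strand) read 5′ to 3′ as follows.
Psmc2: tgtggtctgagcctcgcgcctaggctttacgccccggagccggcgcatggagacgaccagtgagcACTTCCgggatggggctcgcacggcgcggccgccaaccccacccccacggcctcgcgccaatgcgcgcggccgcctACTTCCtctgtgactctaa
Psmc1: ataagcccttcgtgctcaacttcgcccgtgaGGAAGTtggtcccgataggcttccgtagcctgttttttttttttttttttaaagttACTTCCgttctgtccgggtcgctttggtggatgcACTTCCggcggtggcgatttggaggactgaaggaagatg
Psmd13: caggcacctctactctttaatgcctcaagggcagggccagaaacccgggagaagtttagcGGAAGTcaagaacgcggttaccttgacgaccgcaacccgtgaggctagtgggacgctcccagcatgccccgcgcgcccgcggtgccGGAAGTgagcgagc
Psmd6: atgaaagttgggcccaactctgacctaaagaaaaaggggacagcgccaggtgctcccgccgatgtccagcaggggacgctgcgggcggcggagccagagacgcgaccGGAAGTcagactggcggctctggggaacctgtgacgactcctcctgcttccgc
Psme4: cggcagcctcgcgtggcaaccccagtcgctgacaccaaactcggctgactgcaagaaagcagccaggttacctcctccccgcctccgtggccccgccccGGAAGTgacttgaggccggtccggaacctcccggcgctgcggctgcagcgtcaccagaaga
Psmb8: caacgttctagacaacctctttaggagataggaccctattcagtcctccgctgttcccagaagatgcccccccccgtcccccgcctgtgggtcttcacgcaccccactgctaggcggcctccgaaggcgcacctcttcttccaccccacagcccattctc
Psmb9: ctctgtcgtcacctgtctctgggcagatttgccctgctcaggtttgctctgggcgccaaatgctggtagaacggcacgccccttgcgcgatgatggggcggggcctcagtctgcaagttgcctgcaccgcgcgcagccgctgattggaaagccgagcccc

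After 12 days of Dox, 46 of the 51 proteasome genes had a called PU.1 summit within 1 kb of a gene end, against 56.2% of all protein-coding genes. In untreated cells 9 did, against 23.5% of all genes. Days 4 and 8 lay between them, with 27 and 30 genes against 29.8% and 32.7%. The members' share was thus below that of all genes at day 0 and above it at each of the 3 later times. Proteasome genes were shorter than most, with a median of 11.6 kb against 17.2 kb. Reweighting the other genes to the members' lengths, in 10 length classes, gave 22.3, 33.5, 35.2 and 60.3% at days 0, 4, 8 and 12, beside 17.6, 52.9, 58.8 and 90.2% of members.

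In the withdrawal series 20 genes had a gene-end summit in the library titled Day 12- 4 (all genes 15.4%), 40 in Day 12- 8 (43.5%) and 37 in Day 12- 12 (51.4%). The order of the members did not follow list length. Day 12- 8 held 21377 summits and reached 40 members, while day 4 held 57424 and reached 27. The same order held over all genes, at 43.5% in Day 12- 8 and 29.8% at day 4. When each list was reduced to its 8043 highest-scoring summits, the members with a gene-end summit numbered 9, 7, 11 and 21 at days 0, 4, 8 and 12, and 19, 30 and 18 in the withdrawal libraries in title order. All genes then stood at 23.5, 6.76, 12.7 and 19.8% in the restoration series and at 13.7, 23.5 and 14.4% in the withdrawal series. At equal length the members' highest count was thus in Day 12- 8 and their lowest at day 4. Over all genes the lowest share was also at day 4, and the highest, 23.5%, was in Day 12- 8 and at day 0. The counts at days 4, 8 and 12 and in Day 12- 12 moved by more than 1.5 times.

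**Figure D1:**
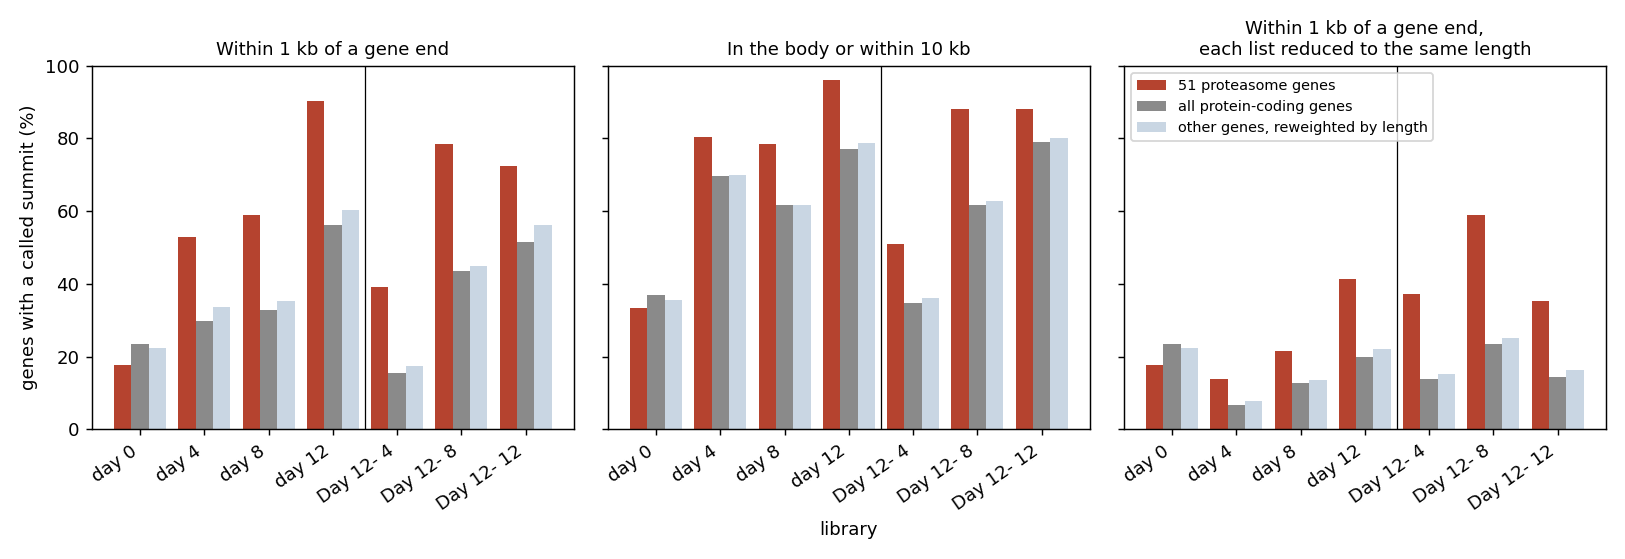
Share of genes (%, y axis) with a called summit in each library (x axis) for the 51 proteasome genes, all protein-coding genes, and the other genes reweighted to the members' lengths; the vertical line parts restoration from withdrawal libraries. In the left panel the proteasome bar reaches 90.2% at day 12 beside 56.2% of all genes, and at day 0 it stands at 17.6% beside 23.5%.

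In the wider window, the gene body plus 10 kb on either side, 17, 41, 40 and 49 members had a summit at days 0, 4, 8 and 12. All genes stood at 36.8, 69.8, 61.7 and 77.1%. The withdrawal libraries gave 26, 45 and 45 members in title order, against 34.8, 61.8 and 78.9%. The distance to all genes was smaller in this window than at gene ends, at 96.1 against 77.1% for day 12.

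The score of a summit, as the authors' peak caller gave it, is the −log10 of the peak's q-value, so a higher score marks a peak less likely to be background within that list. Scores belong to each list and do not measure a change in binding between libraries. Counting a gene with no gene-end summit as 0, the median highest score over the 51 members was 0, 10.3, 7.68 and 70.1 at days 0, 4, 8 and 12. Over all genes it was 0 at days 0, 4 and 8 and 6.10 at day 12. In title order the withdrawal medians were 0, 10.1 and 10.8 for the members and 0, 0 and 2.91 for all genes. At day 12, 15 of the 51 members scored above 181, the 90th percentile of all genes.

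A score minimum left the members' share above that of all genes in every library but day 0 at a minimum of 10. With scores of at least 10, the members numbered 5, 26, 24 and 43 in the restoration series and 15, 27 and 28 in title order, against 12.1, 21.5, 26.0 and 43.9% and then 9.80, 20.3 and 25.4% of all genes. With scores of at least 20 they numbered 4, 20, 17 and 40, then 7, 9 and 18, against 4.56, 15.0, 18.7 and 36.8% and then 5.78, 9.60 and 13.9%. In Day 12- 8 the count thus went from 40 with any score to 9 at the higher minimum, while at day 12 it went from 46 to 40. The share of all genes also fell, from 43.5 to 9.60% in Day 12- 8 and from 56.2 to 36.8% at day 12. The steeper fall in Day 12- 8 was thus not particular to the members.

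**Figure D2:**
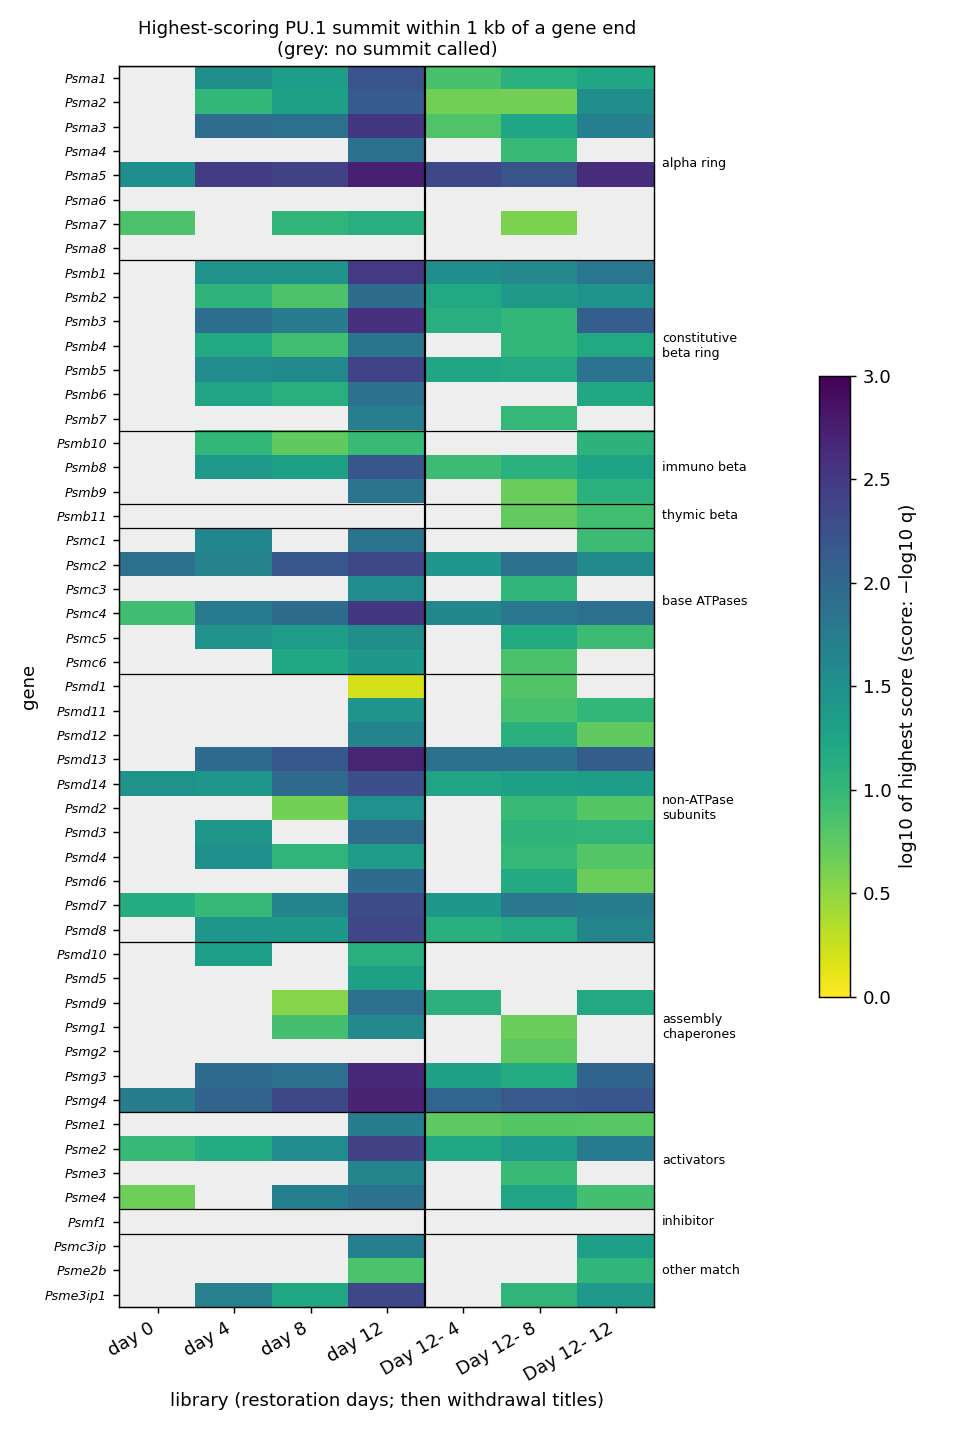
Highest score of a summit within 1 kb of a gene end (colour, log10 scale; grey where no summit was called) for each of the 51 genes (rows, by role) in each library (columns). The day 12 column is filled for 46 genes and the day 0 column for 9, and the rows of Psma5, Psmc2, Psmc4, Psmd7, Psmd14, Psmg4 and Psme2 are filled throughout.

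The alpha ring forms the gated outer surface of the core particle. Of its 8 genes, 2, 4, 5 and 6 had a gene-end summit at days 0, 4, 8 and 12, and 4, 6 and 4 in the withdrawal libraries. Beside this and each later role group, all genes stood at 23.5, 29.8, 32.7 and 56.2%, then at 15.4, 43.5 and 51.4%. The role groups are small, and no difference between them was tested. Psma5 had a site in the same place in all 7 libraries, with summits from 108257007 to 108257025 on chromosome 3, about 90 bp downstream of the start. It scored 32.4, 299, 259 and 544 at days 0, 4, 8 and 12, and 221, 168 and 415 in title order, the highest of the family at day 12. Psma3 had a site outside its lower gene end (chromosome 12, 70968538 to 70968683) in every library but day 0, with a score of 325 at day 12. That site lay at -6020 bp from the start in the RefSeq promoter table, and a separate day 12 summit 23 bp downstream of that start scored 29.5.

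Psma6 showed how the gene-end rule depends on the annotated gene model, and was picked after its values were seen. It had no summit within 1 kb of either outer end in any library. At its second RefSeq start, 14.6 kb inside the gene model, a summit was called in all 7 libraries, at 23 to 102 bp upstream of that start, with scores of 18.0, 13.2, 87.5 and 170.0 at days 0, 4, 8 and 12. The withdrawal scores there were 29.9, 35.8 and 25.8. A further site inside the gene model (chromosome 12, 55389927 at day 12) scored 439, 141 and 62.1 at days 4, 8 and 12. The same site was called in Day 12- 4 (32.1) and Day 12- 12 (21.1), but not at day 0 or in Day 12- 8. Psma8, the alpha subunit of male germ cells, was the only member with no summit in its body or within 10 kb in any library. Of all protein-coding genes 13.4% had none.

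The constitutive beta ring carries the proteolytic sites in its subunits Psmb5, Psmb6 and Psmb7. None of the 7 genes had a gene-end summit at day 0, against 23.5% of all genes. At days 4 and 8, 6 had one (all genes 29.8 and 32.7%), and all 7 at day 12 (56.2%). In the withdrawal libraries the counts were 4, 6 and 6. Psmb3 scored 398 at day 12, from a summit 191 bp upstream of its start, and 83.5, 53.7, 12.7, 10.3 and 128 at day 4, day 8, Day 12- 4, Day 12- 8 and Day 12- 12. Psmb1 scored 311 at day 12 and 28.4, 29.7, 31.7, 38.8 and 66.8 in the same order. Each of these was a site within a span of at most 104 bp called in 6 libraries and missing at day 0. Psmb7 had a gene-end summit at day 12 (52.2) and in Day 12- 8 (10.1) alone. In its body or within 10 kb, summits were also called at day 4 (27.4), at day 8 (7.80) and in Day 12- 12 (6.42).

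The 3 immunoproteasome genes had no summit at day 0, neither at a gene end nor within 10 kb. Of all genes, 23.5 and 36.8% had one there at day 0, so most genes had none either. Psmb8 (chromosome 17, 34198195 to 34201454), the inducible chymotrypsin-like subunit, had a site at 34198362 to 34198409, inside the gene and 167 to 214 bp downstream of its start. That site was called in the 6 other libraries, with scores of 23.9, 19.7 and 157 at days 4, 8 and 12 and 8.82, 12.1 and 18.3 in title order. Psmb9 (34182030 to 34187330), which replaces Psmb6, shares its start region with Tap1, the peptide transporter gene that begins 226 bp away. Its day 12 summit scored 70.1 and lay inside Tap1, 452 bp upstream of the Psmb9 start. A summit was called in that place in Day 12- 12 as well (12.1), and another at -772 bp from the Psmb9 start in Day 12- 8 (4.91). Sites there cannot be assigned to either gene.

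The highest score of this stretch at day 12, 184, belonged to a summit near the far end of Tap1, at -1515 bp from the Psmb8 start. Summits within 100 bp of it were called at day 4 (7.92), at day 8 and in Day 12- 12 (21.5). Psmb10 (chromosome 8, 105935728 to 105938392), which replaces Psmb7, differed in position. Its highest day 12 summit (85.0) lay 1299 bp downstream of the start, beyond the 1 kb limit, and was called at a near position at day 4 (1184 bp, 10.1), at day 8 (1341 bp, 5.94) and in Day 12- 8 (1263 bp, 15.4). Within 1 kb of its gene ends the day 12 score was 9.48, from a summit near the far end. Of the 48 other members, 9, 25, 28 and 43 had a gene-end summit at days 0, 4, 8 and 12, and 19, 38 and 34 in title order. The immunoproteasome genes stood at 0, 2, 2 and 3 of 3, then 1, 2 and 3 of 3. With 3 genes, no difference between these sets is read from the counts.

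**Figure D3:**
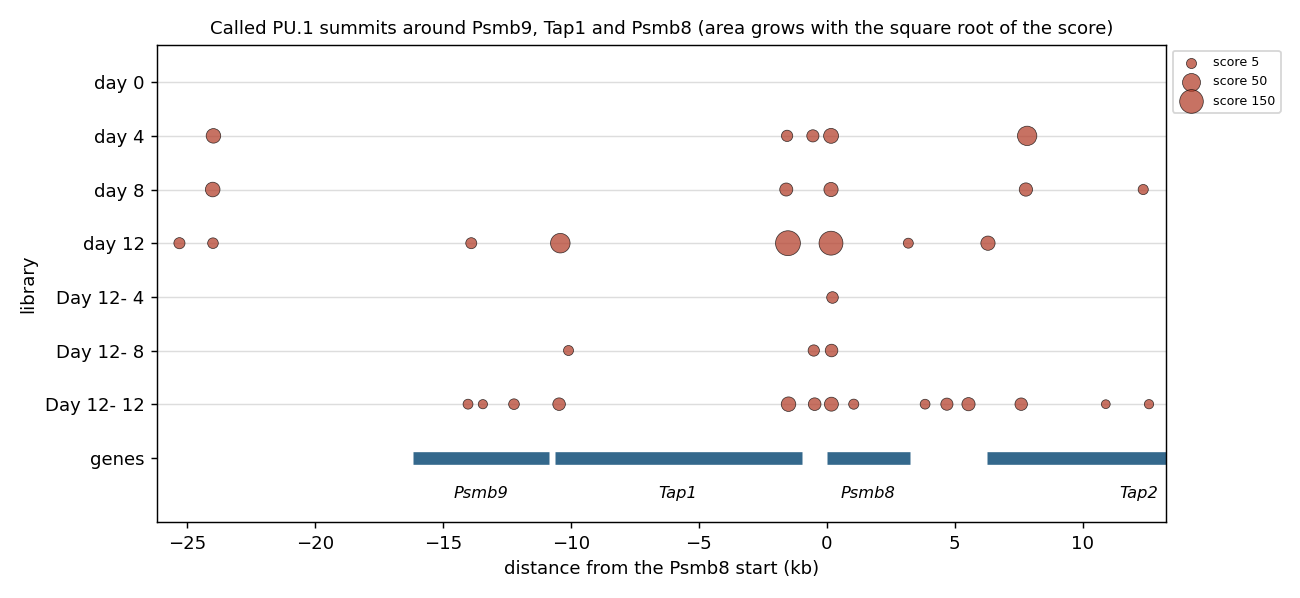
Called summits (circles, area growing with the square root of the score) in each library (rows) by distance from the Psmb8 start (x axis, kb), with the genes as bars at the bottom. The day 0 row is empty, and the circle just downstream of the Psmb8 start is present in the other 6 rows.

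Psmb11, the beta subunit of thymic epithelium, had no gene-end summit in the restoration series. Its gene-end summits were 425 and 455 bp downstream of the start in Day 12- 8 (5.20) and Day 12- 12 (8.04). The score of 247 within 10 kb of it at day 12 belonged to the site at the start of Psmb5, its neighbour.

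The 6 base ATPases form the ring that unfolds substrates. Gene-end summits were called at 2, 4, 4 and 6 of them at days 0, 4, 8 and 12, and at 2, 5 and 4 in title order. Psmc4 scored 8.39, 56.9, 86.3 and 327 in the restoration series and 40.8, 62.8 and 80.0 in title order, all from a site spanning 47 bp. Psmc2 scored 78.5, 45.9, 155 and 221, then 26.3, 78.0 and 36.6. Its site lay 42 bp from the end of Dnajc2 at day 12 and 53 bp from its own start, between the capitals printed above.

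Psmc3 (chromosome 2, 91054016 to 91059438) lies near Spi1, the gene of PU.1, with Slc39a13, a zinc transporter gene, between them. At its own ends it had summits at day 12 (34.8) and in Day 12- 8 (10.5). The highest-scoring summit between Psmc3 and Spi1 lay outside Slc39a13, the nearest protein-coding gene, 152 to 270 bp from its boundary on the Spi1 side. This summit was 11.2 to 11.3 kb beyond Psmc3, just outside the 10 kb window. It was called in all 7 libraries, lay 11.7 to 11.8 kb from Spi1, and scored 112 at day 0 and 534 at day 12.

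Among the 11 non-ATPase regulatory subunits, which bind ubiquitin chains and hold the deubiquitinase Psmd14, the counts were 2, 6, 6 and 11 in the restoration series and 4, 11 and 10 in title order. All 11 were thus called both at day 12 and in Day 12- 8, as were 38 of the 51 members and 37.6% of all genes. With scores of at least 20 the 11 gave 10 at day 12 and 2 in Day 12- 8, beside 36.8 and 9.60% of all genes. Psmd13 scored 88.4, 151 and 493 at days 4, 8 and 12 and 77.8, 76.1 and 131 in title order, with no day 0 summit. Psmd8 had no day 0 summit either and scored 27.6, 25.1 and 227, then 12.3, 15.3 and 42.8. Psmd14 was called in all 7 libraries, with scores of 29.3, 25.6, 93.5 and 186, then 17.6, 19.5 and 21.6. Psmd7 was also called in all 7, at 13.7, 9.86, 44.3 and 208, then 24.9, 63.4 and 53.6.

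The assembly chaperones help to build the particle and leave it. The counts were 1, 3, 4 and 6 of 7 in the restoration series, then 3, 4 and 3. Psmg4 was called in all 7 libraries, with scores of 55.7, 111, 223 and 503, then 106, 144 and 158. Psmg3 was called in the 6 libraries after day 0, with 88.4, 79.2 and 451 and then 19.1, 14.4 and 107. Psmg2, picked after its values were seen, was the member of this group with no day 12 call, and its lone summit (5.58, Day 12- 8) lay inside the neighbouring gene Cep76.

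Of the 4 activators, caps that open the core particle without ATP, 2, 1, 2 and 4 had a gene-end summit in the restoration series, then 2, 4 and 3. Psme2, an interferon-inducible cap subunit, had a site in all 7 libraries with scores of 9.91, 14.2, 35.1 and 256, then 15.7, 22.7 and 57.0. At day 12 this site lay 639 bp upstream of Psme2 and 27 bp from an end of Rnf31, a ubiquitin ligase gene. Psme4 scored 4.55, 50.4 and 75.2 at days 0, 8 and 12, then 17.8 in Day 12- 8 and 7.88 in Day 12- 12, with no summit at day 4 or in Day 12- 4. Psmf1, the inhibitor, had no summit within 1 kb of the outer ends of its gene model. At its RefSeq start, 2889 bp inside the model, summits scored 58.7 at day 12, 6.75 in Day 12- 8 and 13.9 in Day 12- 12, 83 to 212 bp downstream.

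The day 12 list added 37 genes that had no gene-end summit at day 0, against 37.8% of all genes, and all 9 genes called at day 0 were called again, as were 78.0% of all genes called at day 0. Of the 37, 17 were called at days 4 and 8 as well, against 37.8% of all genes called at day 12 and not at day 0. A further 13 of the 37 were called at neither day 4 nor day 8, against 42.4% on the same base. The 13 were Psma4, Psmb7, Psmb9, Psmc3, Psmd1, Psmd5, Psmd6, Psmd11, Psmd12, Psme1, Psme3, Psmc3ip and Psme2b. The highest day 12 scores of this late set were 89.1 at Psmd6, 79.7 at Psma4 and 70.1 at Psmb9, and the lowest was 1.56 at Psmd1. The set is late at gene ends only. In the body or within 10 kb, all but Psma4, Psmd5, Psmd6 and Psme2b had a summit before day 12. Examples were Psmc3 (105 at day 4), Psmc3ip (83.6 at day 4) and Psmd11 (4.55 at day 0). In Day 12- 8, 10 of the 13 had a gene-end summit too, all but Psmd5, Psmc3ip and Psme2b, against 47.2% of all genes first called at day 12. This counts genes and not sites. At Psmd11 the summits lay 34 bp upstream of the start at day 12 and 360 bp downstream in Day 12- 8. At Psme3 they lay 260 bp upstream and 77 bp downstream.

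All 7 libraries called a gene-end summit at 7 members, against 5.41% of all genes, and no library did at 3 (Psma6, Psma8 and Psmf1), against 28.5%. The 7 were Psma5, Psmc2, Psmc4, Psmd7, Psmd14, Psmg4 and Psme2, each with a site in the same place within 100 bp by single linkage, as had 3.87% of all genes. Without day 0, 16 members had such a common site, against 8.13% of all genes. Of the 46 members called at day 12, 2 (Psmd5 and Psmd10) were called in none of the withdrawal libraries, a share of 4.35% beside 7.01% of all genes called at day 12. Day 12 and Day 12- 8 shared 38 members, against 37.6% of all genes, and 29 of the 38 had no day 0 summit, against 55.7% of all genes shared by these lists. At 27 of the 38 the lists shared a site joined by single linkage over all libraries, a share of 71.1% beside 63.4% of all shared genes. Summits joined in this way can lie over 100 bp apart. Of the 34 members with a start summit in both lists, 20 had these summits within 100 bp of each other, beside 54.5% of all such genes.

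Most calls lay at gene starts. Among the 43 members with a RefSeq start, 9, 23, 27 and 41 had a summit within 1 kb of it at days 0, 4, 8 and 12, against 25.1, 27.9, 33.2 and 55.5% of genes with a start. In title order 17, 35 and 32 had one, against 15.7, 45.6 and 44.3%. The other end of the gene, taken where it lay over 2 kb from any start, had a summit at 0, 0, 2 and 12 of 42 members at days 0, 4, 8 and 12, and at 0, 1 and 16 in title order. For all genes these shares were 1.33, 8.23, 5.32 and 19.4%, then 2.16, 4.82 and 28.3%. The libraries with the most calls at the far end, day 12 and Day 12- 12, were also those with the longest lists.

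At day 12 the summit nearest the start lay at a median of 34 bp upstream for the 41 members and within 100 bp of the start for 30 of them, against 49.4% of all genes with such a summit. In Day 12- 8 the median position was 60 bp downstream, for the members and for all genes alike, and 17 of 35 members lay within 100 bp, near the 42.5% of all genes. For the 34 members with a start summit in both lists, the one in Day 12- 8 lay downstream of the day 12 one in 26, with a median shift of 66 bp. Over all genes the shift was 32 bp, downstream in 63.8% of 6760. Psmb5 was an example, with its summit 17 bp upstream of the start at day 12 and 199 bp downstream in Day 12- 8. At Psmg1 the positions were 71 bp upstream and 216 bp downstream. Of the other libraries, day 8 and Day 12- 12 differed from day 12 by medians of 2 and 7 bp over the members. Day 0, day 4 and Day 12- 4 differed by 10, 1 and 16 bp, over 9, 22 and 17 members. Over all genes the shift was not particular to Day 12- 8. Day 0 summits lay a median of 49 bp downstream of the day 12 ones, and downstream in 66.5%.

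**Figure D4:**
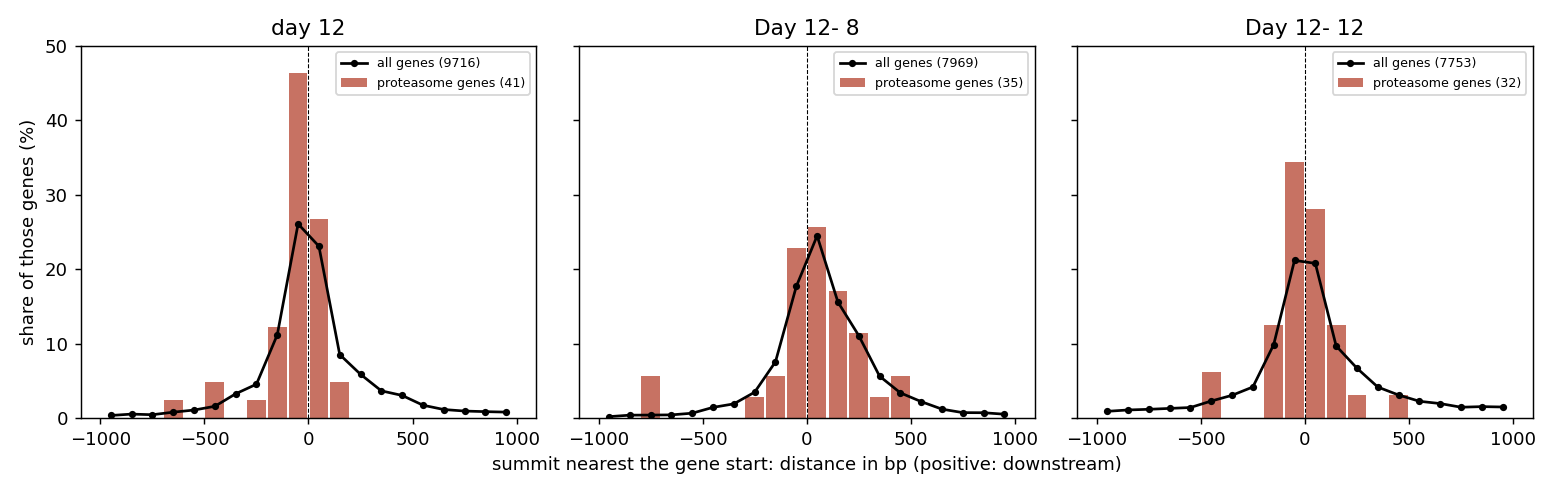
Position of the summit nearest the gene start (x axis, bp, positive downstream; 100 bp bins) as a share of genes with such a summit (y axis, %), for proteasome genes (bars) and all genes with a start (line), in 3 libraries. At day 12 the tallest bar is just upstream of the start (median 34 bp upstream), and in Day 12- 8 the bars extend downstream (median 60 bp).

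Close neighbours make some sites ambiguous. Another protein-coding gene ended or began within 1 kb of a gene end at 21 of the 51 members, against 24.8% of all genes. Such genes were called more often in general, at 83.0% of all genes against 47.3% for those without a close neighbour at day 12. The members stood at 19 of 21 and 27 of 30. In Day 12- 8 they stood at 18 of 21 and 22 of 30, beside 66.2 and 36.0% of all genes. At day 0 they stood at 4 of 21 and 5 of 30, beside 30.9 and 21.1%. For 13 of the 46 members called at day 12 the highest-scoring site was within 1 kb of another gene's end, against 25.5% of all genes called. For 6 (Psma2, Psma7, Psmb9, Psmc2, Psme2 and Psme3ip1) that end was nearer than the member's own, against 12.4%.

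Chromosomes 12, 13, 14 and 16 held 13 of the 51 members and 13.9% of protein-coding genes, but 11.1% of summits at day 0, 8.67% at day 12 and 6.06% in Day 12- 12. Gene-end summits were called at 11 of these 13 members at day 12 and at 10 in Day 12- 12, where all genes of these chromosomes stood at 50.2 and 36.5%. On the other chromosomes the counts were 35 and 27 of 38, beside 57.1 and 53.8% of all genes. At day 0 they were 2 of 13 and 7 of 38, beside 20.1 and 24.0%. The part of this imbalance in the members' counts was not tested.

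The ETS core GGAAGT occurred in 46.8% of the members' 47 promoter windows and in 24.8% of all 21263 windows of protein-coding genes. The longer ETS-type sequence CCGGAAGT, which contains the core and is common at housekeeping starts, occurred in 10 of the 47 windows (21.3%) and in 5.15% of all. It was found at Psma6, Psmc1, Psmc2, Psmd6, Psmd12, Psmd13, Psme3, Psme4 and Psmg3. The PU.1-type sequence GAGGAAGT, which also contains the core, occurred in 3 windows (6.38%), at Psma6, Psmc1 and Psmc2, and in 3.13% of all. Windows with a day 12 summit held the core in 40.6% of cases over all genes, and windows without in 18.7%. Among the members the core was in 17 of 32 windows with a day 12 summit. In those 17 the highest-scoring summit lay a median of 29.5 bp from the nearest core, and within 50 bp in 13. Over all genes the median was 24.5 bp, with 68.1% within 50 bp, so the members' 76.5% was near the general share.

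Other sequences gave smaller counts. The interferon-stimulated sequence, GAAA then any 2 bases then GAAA, was found in 5 member windows, at Psmb3, Psmd4, Psmd9, Psme1 and Psmg4, which is 10.6% against 3.35% of all windows. The ETS-IRF composite, GGAA then any 2 bases then GAAA, was found in 2, at Psmc2 and Psme1 (4.26% against 2.53%). The CCAAT box, CCAAT, was in 34.0% of member windows and 38.2% of all. The antioxidant-like sequence TGACTCAGC, bound by factors of the Nfe2l family, was in none of the 47 and in 0.414% of all. All searches covered both strands, and a match describes the letters only. At Psma5 and Psmg4, the highest scores of the family at day 12, the windows held no ETS core. The Psma5 summits lay 81 to 99 bp downstream of the start, beyond the end of the window.

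Genes linked to the proteasome but outside the symbol rule were counted in the same way. Of 11 such genes 10 were matched in the table. Of these, 7, 3, 8 and 9 had a gene-end summit at days 0, 4, 8 and 12, then 1, 9 and 4 in title order. All genes stood at 23.5, 29.8, 32.7 and 56.2%, then at 15.4, 43.5 and 51.4%. Adrm1, a ubiquitin receptor of the regulatory particle, scored 39.3 at day 0 and 101 at day 12 and had no summit at day 4. Pomp, the maturation factor of the core particle, scored 86.6 at day 12 and 40.4 in Day 12- 8, and had no summit at day 4. Nfe2l1, a transcription factor of proteasome genes, scored 10.3, 12.8, 28.7 and 73.0 in the restoration series. At day 0, 7 of 10 thus stood beside 9 of the 51 members, a difference that was not tested.

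Genes of class I antigen processing, which acts on the peptides the proteasome makes, were also counted. They had a gene-end summit in 4, 7, 7 and 10 of 10 cases in the restoration series, then in 5, 7 and 9. All genes stood at 23.5, 29.8, 32.7 and 56.2%, then at 15.4, 43.5 and 51.4%. Tapbp, which holds class I molecules to the transporter, scored 13.1 at day 0 and 458 at day 12. Tap1 scored 10.7 at day 4 and 184 at day 12 with no day 0 summit, and its values overlap those of Psmb8 and Psmb9 because the windows share sites. B2m, the class I light chain, scored 23.7, 15.1 and 63.7 at days 4, 8 and 12, and Nlrc5, the activator of class I genes, 6.64, 9.41 and 88.4. Neither had a gene-end summit at day 0.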

How the data were processed

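The 7 deposited files listed peak summits, a single base for each peak. Per the submitters' processing notes, MACS2 and mm10 were used. The deposited score was read as −log10 of the q-value, since the lowest value over all lists was 1.30104 and a q limit of 0.05 corresponds to 1.30103. Aligner, control, depth and pooling are not given in the sources used here. An 8th sample, whose title names no time point, was not analysed here.

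Gene positions and promoter windows came from RefSeq tables for GRCm38.p6, and mitochondrial genes were left out. A gene was called when a summit lay within 1 kb of either end of its body, or in the body plus 10 kb. Summits of different lists within 100 bp were joined by single linkage. Background shares cover all protein-coding genes. For the reweighted share, the other genes were split into 10 length classes. Python 3.11.15, numpy 2.4.6, pandas 2.3.3 and matplotlib 3.10.9 were used, and counting was tested on simulated data. Named genes were the immunoproteasome genes, the 2 highest gene-end scores at day 12 per role, members called in all 7 libraries, those with no summit within 10 kb in any, and those first called at day 12. Psma6, Psmf1, Psmg2, Psmb5, Psmb11, Psmg1, Psmd10 and genes named in counts or for motifs were added after their values were seen. The members and lists were chosen with earlier results of these data known. Alternatives were other distances, score minimums of 10 and 20, lists of equal length, gene starts alone and fewer members.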

Additional observations from a re-analysis of the deposited data

How the results depend on the processing

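No paired analysis was possible because every group held 1 library and no result came from a test. Of 125 alternative values for 24 counts, 84 stayed within 1.5 times the reported count. These included every value for other distances (500 bp, 2 kb, 5 kb and 20 kb windows, and 250 bp linkage), for gene starts alone, for leaving out the 3 matches of another kind, for withdrawal libraries grouped by treatment label, and for common sites without Day 12- 4 or Day 12- 12. The rest were as follows. With lists of equal length the gene-end counts were 7, 11 and 21 at days 4, 8 and 12 and 18 in Day 12- 12. The counts in the body or within 10 kb were then 12, 16, 27 and 24, and the immunoproteasome counts were 0 at days 4 and 8, 1 at day 12, 1 in Day 12- 8 and 0 in Day 12- 12. For scores of at least 20 the gene-end counts were 4 at day 0, 17 at day 8, and 7, 9 and 18 in the withdrawal libraries in title order. In the wider window they were 6, 23, 9, 12 and 24. The immunoproteasome counts were 1 at day 4, and 0 at day 8 and in the 3 withdrawal libraries. For scores of at least 10 the day 0 counts were 5 at gene ends and 11 in the wider window, and the immunoproteasome counts were 1 at day 8, 0 in Day 12- 4 and 1 in Day 12- 8. Among the 30 members with no other gene end within 1 kb, a set chosen after seeing the data, the counts were 5, 16, 18, 27, 11, 22 and 22 in library order. Sites common to all libraries numbered 16 without day 0. The cause of these moves was not tested, except that the last 2 use fewer genes or libraries. Depth was unknown, and 1 library per time point limits every comparison.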

Other observations

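The table also held 6 pseudogenes of proteasome subunits. Gene-end summits were called at 1 of them at day 12 (Psma5-ps) and at 1 in Day 12- 12 (Psmb5-ps), and at none in the 5 other libraries. Over all 9955 pseudogenes of the table the share called was 10.1% at day 12 and 18.2% in Day 12- 12. The 2 short or unrelated matches Psme2b and Psmc3ip were called at day 12 (7.16 and 50.6) and in Day 12- 12 (10.5 and 20.4) and nowhere else at their ends.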
